A study of Mus musculus with 4 samples.

Results

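MYC and 48 factors that build ribosomes were followed in group 2 innate lymphoid cells (ILC2s), tissue-resident lymphocytes that make type 2 cytokines. The 49 genes are rows of the deposited table chosen by their symbols, out of 22083 genes with a value in every library, and all 49 symbols were found. RNA was sequenced from ILC2s sorted from small intestinal lamina propria (SI-ILC2s, 2 libraries) or from white fat of the mesentery (WAT-ILC2s, 2 libraries) of wild-type C57BL/6 mice aged 9 weeks. Values are RPKM, the read count scaled to gene length and to library size, as the authors deposited them, and a change is the SI-ILC2 mean less the WAT-ILC2 mean on the log2(RPKM + 1) scale with its standard error (SE). This scale makes changes of genes with low values look smaller. The labels name no separate mice behind the 2 libraries of a tissue, so the spread between them may be technical.

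The genes were chosen with earlier results of this same comparison known. Their values and the counts of them that passed the threshold of the fit across all genes are therefore a description, and no test of them is given. A gene is said to be past the threshold when its adjusted p in limma, with Benjamini-Hochberg adjustment over all 8230 tested genes, was below 0.05. Genes with at least 1 RPKM in at least 2 libraries were tested, which kept 47 of the 49. Nop10 and Wdr12 were not tested. None of the 47 was kept by the libraries of a single tissue alone. The design confounds the isolation from each tissue, the number of cells of a type and the RNA per cell with the tissue, so these cannot be told apart.

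A ribosome is assembled in the nucleolus. RNA polymerase I transcribes the long precursor of the ribosomal RNAs, small nucleolar ribonucleoprotein particles (snoRNPs) modify it, and assembly factors fold and cut it while ribosomal proteins join, until a small and a large subunit leave for the cytoplasm. MYC is a transcription factor that pairs with MAX, binds E-box sequences and activates many of the genes of this pathway, and lymphocytes raise MYC and ribosome production when they are activated to grow.

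The depth estimated from the value steps of single-exon genes was 55400000 to 75700000 reads per library. The markers of the sorted cells were present: all 12 genes of an ILC2 list passed the filter on low values, and Gata3, the defining transcription factor, was at 354 and 377 RPKM in SI-ILC2s, against 338 and 397 RPKM in WAT-ILC2s. Transcripts of other cells were scarce but not equal between tissues. The 7 red cell genes summed to 41.7 and 13.3 RPKM in SI-ILC2s, against 140.0 and 88.96 RPKM in WAT-ILC2s, the 6 T cell genes to 8.49 and 6.77 RPKM in SI-ILC2s and 23.2 and 12.4 RPKM in WAT-ILC2s, and the 8 B and plasma cell genes to 25.3 and 19.5 RPKM in SI-ILC2s and 3.52 and 3.50 RPKM in WAT-ILC2s. Fibroblast genes summed to 1.32 and 1.69 RPKM in SI-ILC2s, against 11.2 and 6.06 RPKM in WAT-ILC2s, adipocyte genes to 0.731 and 0.348 RPKM in SI-ILC2s and 4.67 and 4.02 RPKM in WAT-ILC2s, and mast cell genes to 0.611 and 0.514 RPKM in SI-ILC2s and 2.94 and 1.73 RPKM in WAT-ILC2s. Endothelial genes summed to 4.63 and 6.39 RPKM in SI-ILC2s and 5.26 and 7.37 RPKM in WAT-ILC2s, epithelial genes to 5.70 and 13.5 RPKM in SI-ILC2s and 10.7 and 8.82 RPKM in WAT-ILC2s, macrophage and dendritic cell genes to 4.02 and 1.92 RPKM in SI-ILC2s and 6.60 and 8.65 RPKM in WAT-ILC2s, and ILC3 genes to 2.98 and 4.75 RPKM in SI-ILC2s and 0.742 and 0.844 RPKM in WAT-ILC2s. No gene of these lists was at 0 in all libraries. Their part in the results was not tested.

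Most of the 49 genes had higher levels in the intestine. For 32 genes both SI-ILC2 values exceeded both WAT-ILC2 values, for 7 both WAT-ILC2 values exceeded both SI-ILC2 values, and for 10 the libraries overlapped. Among all tested genes the first order held for 29.8% and the second for 45.9%. The median level of the 49 genes was 11.7 and 12.8 RPKM in the SI-ILC2 libraries and 7.73 and 8.34 RPKM in the WAT-ILC2 libraries. Together they made up 0.723% and 0.715% of all RPKM in SI-ILC2s, against 0.521% and 0.519% in WAT-ILC2s. The mean was at least 2 times as high in SI-ILC2s for 14 genes and at least 2 times as high in WAT-ILC2s for 1, Bysl.

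**Figure D1:**
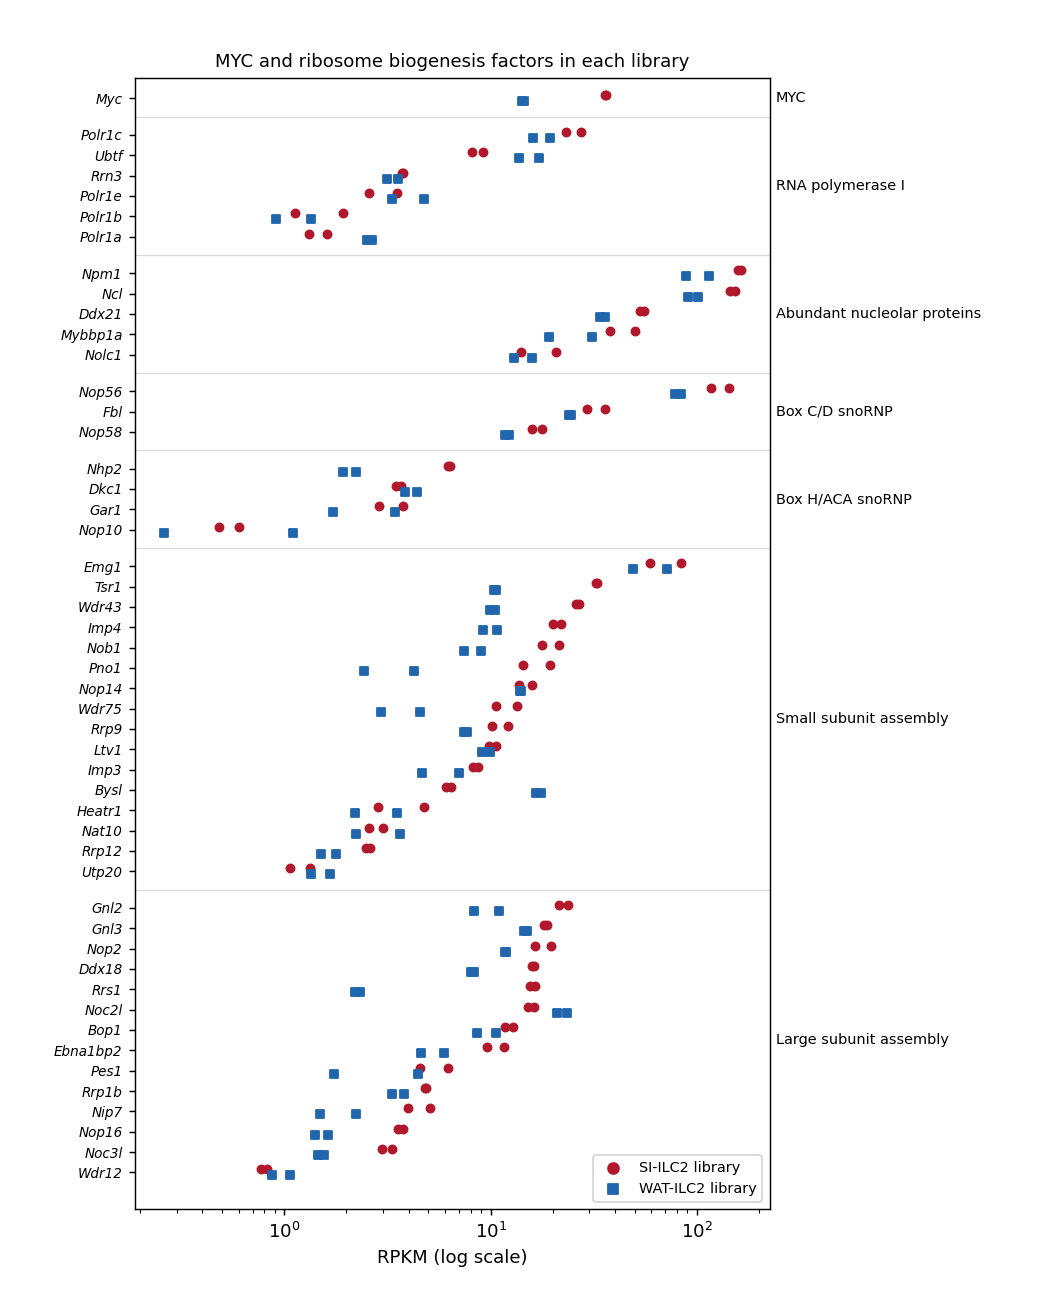
RPKM (log scale) of Myc and the 48 ribosome biogenesis factors, grouped by role, with a circle for each SI-ILC2 library and a square for each WAT-ILC2 library. The circles lie right of both squares for 32 of the 49 genes, with the widest gap for Rrs1, and left of them for 7, with the widest gap for Bysl.

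Of the 47 tested genes, 25 were past the threshold with higher values in SI-ILC2s (53.2%) and 4 with higher values in WAT-ILC2s (8.51%). Among all tested genes these shares were 17.9% and 29.6%. The median change of the 47 genes was 0.50, and that of all tested genes was -0.15. Other scalings of the libraries moved all genes together: the median of all tested genes was 0.00 with median-of-ratios scaling, -0.02 with quantile normalization and -0.26 after rescaling to equal column sums, and the share of them called was then 23.8% and 22.1%, 21.5% and 22.9%, and 13.7% and 35.1%. Relative to the median of all genes, the median of the 47 was 0.64 higher as deposited and 0.56 to 0.67 higher under these scalings. In the same order of scalings, the count of 25 genes higher in SI-ILC2s was 30, 24 and 19. It was 19 with no filter on low values, where 5.95% of all genes were past the threshold with higher values in SI-ILC2s. The count of 25 genes became 16 without SI-ILC2 replicate 1 and 15 without SI-ILC2 replicate 2, and the count of 4 became 1 without SI-ILC2 replicate 2 and 2 with median-of-ratios scaling. Of the 29 genes past the threshold, 13 missed it in at least 1 alternative, among them Ncl, Npm1, Nop56, Nop58 and Ubtf, and 16 missed it in none in which they were tested.

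**Figure D2:**
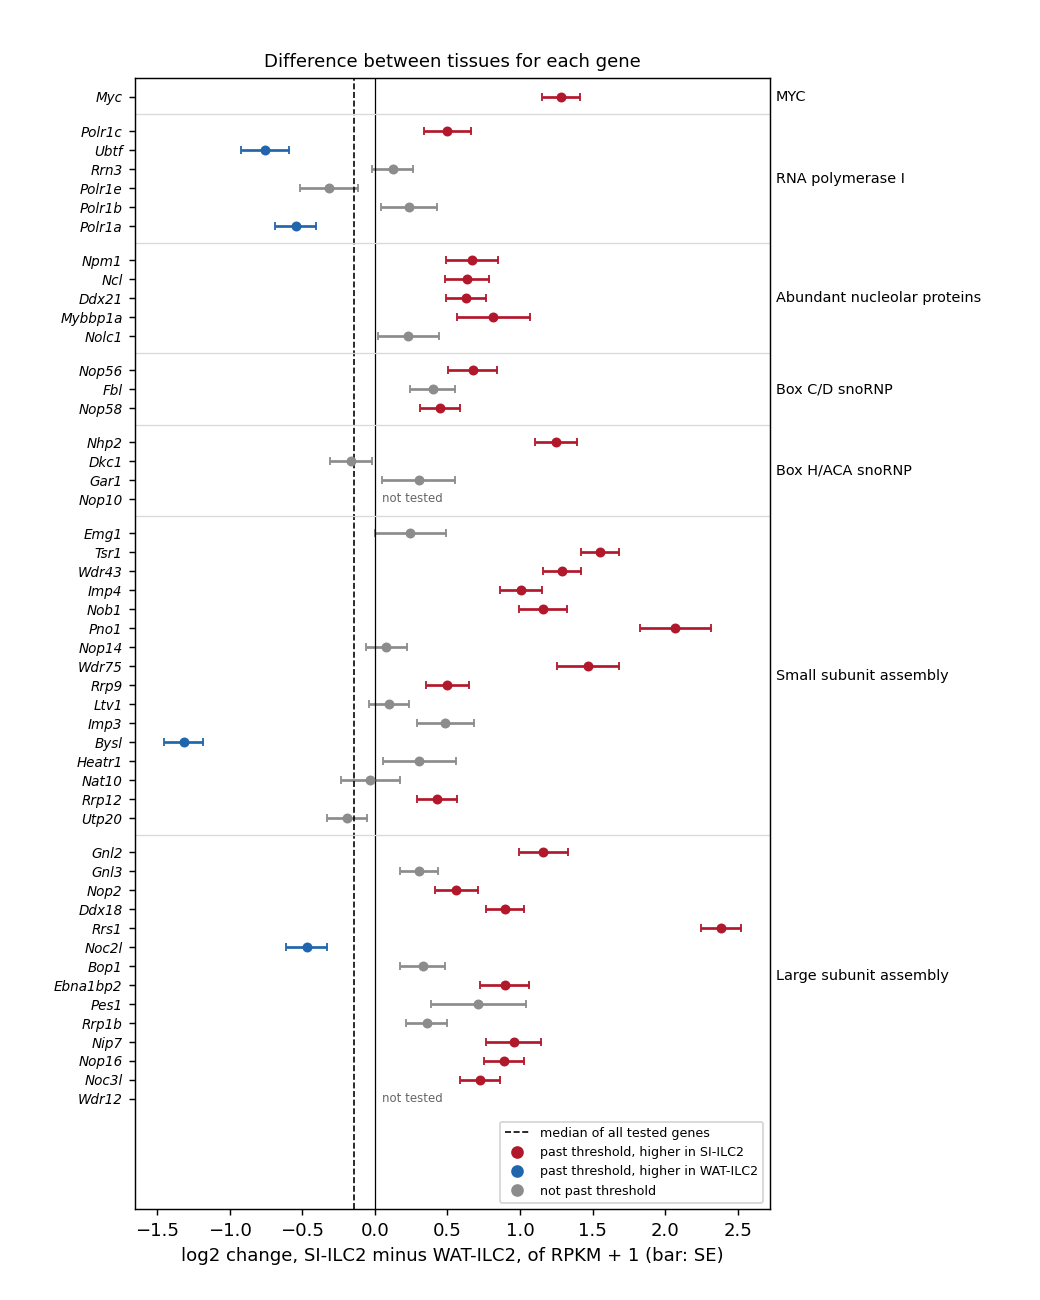
Change of each gene on the log2(RPKM + 1) scale, positive where SI-ILC2s were higher, with its SE as a bar and the median of all tested genes (-0.15) as a dashed line. The changes run from -1.32 for Bysl to 2.38 for Rrs1, and colour marks the 25 and 4 genes past the threshold in each direction.

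Myc (chromosome 15, 61985391 to 61990374, GRCm38) was at 36.02 and 36.4 RPKM in SI-ILC2s, against 14.15 and 14.5 RPKM in WAT-ILC2s. The tissues were well separated and the libraries of each tissue nearly equal. The mean was 2.53 times as high in SI-ILC2s, a change of 1.28 (SE 0.13), and it stayed between 1.13 and 1.46 in every alternative processing tried. No other annotated gene overlaps the exons of Myc.

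The sequence bound by MYC and MAX, the canonical E-box CACGTG, was looked for in promoter windows from RefSeq (GRCm38.p6) that run from 250 bases before to 50 bases after the start of transcription. The letters read the same on both strands. Windows were in the table for 42 of the 49 genes, and 10 of the 42 (23.8%) held the letters. They were held by 790 of 6212 tested genes with a window (12.7%) and by 8.09% of all 27025 genes in the table. In 7 of the 11 matches of the 10 genes the letters began at or after the start site, against 14.6% of 959 matches among the tested genes. Each match is written 5′ to 3′ on the strand of its gene, with the E-box in capitals, to let the flanks be compared.
Wdr43: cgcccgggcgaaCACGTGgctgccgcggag
Tsr1: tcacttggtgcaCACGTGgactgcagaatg
Pno1: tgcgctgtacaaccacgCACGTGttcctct
Imp4: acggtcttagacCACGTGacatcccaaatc
Nop2: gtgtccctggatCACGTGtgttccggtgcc
Mybbp1a: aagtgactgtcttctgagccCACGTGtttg
Pes1: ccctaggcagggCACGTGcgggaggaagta
Rrn3, first match: gagcgccaaggtCACGTGcacacgcctcta
Rrn3, second match: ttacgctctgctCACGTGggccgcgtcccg
Ltv1: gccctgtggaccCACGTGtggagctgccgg
Utp20: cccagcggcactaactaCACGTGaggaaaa

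These sites lie at chr17:71616220-71616249 (Wdr43, plus strand), chr11:74898092-74898121 (Tsr1, plus), chr11:17211540-17211569 (Pno1, minus), chr1:34439696-34439725 (Imp4, plus), chr6:125131811-125131840 (Nop2, plus), chr11:72441347-72441376 (Mybbp1a, plus), chr11:3963965-3963994 (Pes1, plus), chr16:13780472-13780501 and chr16:13780639-13780668 (Rrn3, plus), chr10:13193092-13193121 (Ltv1, minus) and chr10:88826765-88826794 (Utp20, minus). Counted from the start site as base 1, the E-box began at base 18 in Wdr43, 25 in Tsr1 and 38 in Pno1, and it began 121 bases before the start in Imp4. Both matches of Rrn3 lie before its start, at 215 and 48 bases. The 10 genes were not alike in their values. Pno1, Tsr1, Wdr43, Imp4, Mybbp1a and Nop2 were past the threshold with higher values in SI-ILC2s, while Pes1, Rrn3, Ltv1 and Utp20 were not past it. The median change was 0.76 for the 10 genes with the letters and 0.40 for 30 tested genes with a window and without them. For other ribosome biogenesis genes, described further on, the 2 medians were 0.40 (20 genes) and 0.40 (94 genes). For all tested genes with a window they were -0.170 (790 genes with the letters) and -0.157 (5422 genes without them). A match is a run of letters and does not show that MYC binds there.

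Of 6 genes of RNA polymerase I and its initiation factors, 1 was past the threshold with higher values in SI-ILC2s (16.7%) and 2 with higher values in WAT-ILC2s (33.3%), close to the 17.9% and 29.6% of all tested genes. Polr1c (chromosome 17, 46243920 to 46248054), a subunit that polymerase I shares with polymerase III, was at 27.5 and 23.4 RPKM in SI-ILC2s, against 19.4 and 16.01 RPKM in WAT-ILC2s (change 0.50, SE 0.16). Ubtf (chromosome 11, 102304560 to 102319742), the factor that keeps ribosomal DNA open and promotes initiation, was at 9.23 and 8.10 RPKM in SI-ILC2s, against 17.1 and 13.7 RPKM in WAT-ILC2s (change -0.76, SE 0.16). Polr1a, the largest subunit, was at 1.62 and 1.31 RPKM in SI-ILC2s, against 2.67 and 2.52 RPKM in WAT-ILC2s (change -0.55, SE 0.14). Both were thus higher in WAT-ILC2s, unlike most of the 49 genes. Polr1b, the second largest subunit, and Polr1e overlapped between tissues, with means of 1.52 RPKM in SI-ILC2s against 1.13 in WAT-ILC2s and 3.04 RPKM in SI-ILC2s against 4.04 in WAT-ILC2s. Rrn3, which links the polymerase to its promoter, was nearly level, at 3.72 and 3.75 RPKM in SI-ILC2s, against 3.58 and 3.14 RPKM in WAT-ILC2s. The counts of 1 and 2 became 1 and 1 with median-of-ratios scaling, where Polr1a missed the threshold, 0 and 1 with quantile normalization, 0 and 2 after rescaling to equal column sums, 0 and 2 without SI-ILC2 replicate 1, 0 and 0 without SI-ILC2 replicate 2 and 0 and 3 without WAT-ILC2 replicate 2.

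The abundant nucleolar proteins held the most abundant transcripts of the set. Of these 5 genes, 4 were past the threshold with higher values in SI-ILC2s (80%) and none with higher values in WAT-ILC2s. Among all tested genes these shares were 17.9% and 29.6%. Npm1 (chromosome 11, 33152287 to 33163206), which encodes the histone and ribosome chaperone nucleophosmin, was at 164 and 159 RPKM in SI-ILC2s, against 115 and 89.1 RPKM in WAT-ILC2s (change 0.67, SE 0.18). Ncl (chromosome 1, 86344719 to 86359400), which encodes nucleolin, an RNA-binding protein of the earliest precursor, was at 153 and 146 RPKM in SI-ILC2s, against 90.9 and 101.2 RPKM in WAT-ILC2s (change 0.63, SE 0.15). The mean of each was close to 1.6 times as high in SI-ILC2s (1.58 and 1.56), with no overlap between tissues. Ddx21, an RNA helicase, was at 55.7 and 53.4 RPKM in SI-ILC2s, against 36.0 and 34.04 RPKM in WAT-ILC2s (change 0.63, SE 0.14). Mybbp1a, a nucleolar MYB-binding protein, was at 38.2 and 50.4 RPKM in SI-ILC2s, against 19.3 and 31.0 RPKM in WAT-ILC2s, so that its libraries were separated but far apart within each tissue (change 0.82, SE 0.25). Nolc1, a chaperone of snoRNPs, overlapped, at 20.7 and 14.1 RPKM in SI-ILC2s, against 15.9 and 13.1 RPKM in WAT-ILC2s. The count of 4 past the threshold became 1 without SI-ILC2 replicate 1 and 0 without SI-ILC2 replicate 2.

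All 3 core proteins of box C/D snoRNPs, the particles that methylate ribosomal RNA, were higher in both SI-ILC2 libraries. This order held for 29.8% of all tested genes. Of the 3, 2 were past the threshold with higher values in SI-ILC2s (66.7%), against 17.9% of all tested genes. Nop56 (chromosome 2, 130274430 to 130279313), a scaffold of the particle, was at 144 and 118 RPKM in SI-ILC2s, against 84.4 and 78.1 RPKM in WAT-ILC2s (change 0.68, SE 0.17). Its partner Nop58 was at 16.0 and 17.7 RPKM in SI-ILC2s, against 11.8 and 12.3 RPKM in WAT-ILC2s (change 0.45, SE 0.14). Fbl, which encodes the methyltransferase fibrillarin, was at 35.9 and 29.3 RPKM in SI-ILC2s, against 24.6 and 24.2 RPKM in WAT-ILC2s (change 0.40, SE 0.15) and was not past the threshold. The RPKM of Nop56 was thus several times as high as those of its partners in the same particle. Nop56 and Nop58 have 5 and 4 snoRNA genes inside them. The part of snoRNA or intron reads in these values was not tested. The count of 2 past the threshold became 3 with median-of-ratios scaling, 1 after rescaling to equal column sums, 0 without either SI-ILC2 replicate and 1 without either WAT-ILC2 replicate.

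The core of box H/ACA snoRNPs, which convert uridine to pseudouridine, showed no common direction. Nhp2 (chromosome 11, 51619735 to 51623714), an RNA-binding subunit, was at 6.34 and 6.22 RPKM in SI-ILC2s, against 1.92 and 2.23 RPKM in WAT-ILC2s, with a mean 3.03 times as high in SI-ILC2s (change 1.25, SE 0.14). Dkc1, which encodes the pseudouridine synthase dyskerin, was at 3.66 and 3.46 RPKM in SI-ILC2s, against 3.83 and 4.42 RPKM in WAT-ILC2s (change -0.17, SE 0.14). Gar1 overlapped between tissues, at 2.87 and 3.74 RPKM in SI-ILC2s, against 1.72 and 3.44 RPKM in WAT-ILC2s. Of these 3, Nhp2 was the 1 past the threshold, and the count was 2 without WAT-ILC2 replicate 2. Nop10, the smallest subunit, was at 0.604 and 0.483 RPKM in SI-ILC2s, against 1.10 and 0.261 RPKM in WAT-ILC2s, which corresponds to about 19 to 68 reads per library. The 4 subunits share a particle, and yet their mean levels in SI-ILC2s ranged from 0.544 to 6.28 RPKM.

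Factors of the small subunit were the group with the widest range of changes. Of 16 genes, with a median change of 0.46, 8 were past the threshold with higher values in SI-ILC2s (50%) and 1 with higher values in WAT-ILC2s (6.25%). Among all tested genes these shares were 17.9% and 29.6%. The counts of 8 and 1 became 9 and 1 with median-of-ratios scaling. They were 6 and 1 with no filter on low values and after rescaling to equal column sums. Pno1 (chromosome 11, 17203198 to 17211568), an RNA-binding factor of the late precursor, was at 19.5 and 14.4 RPKM in SI-ILC2s, against 4.25 and 2.42 RPKM in WAT-ILC2s, with a mean 5.08 times as high in SI-ILC2s (change 2.07, SE 0.25). Its partner in the same late precursor Nob1, the nuclease that makes the last cut of the small subunit RNA, was at 17.8 and 21.4 RPKM in SI-ILC2s, against 7.44 and 9.04 RPKM in WAT-ILC2s (change 1.16, SE 0.16). Tsr1 (chromosome 11, 74898071 to 74909342), a GTPase-like factor of that particle, was at 33.0 and 32.5 RPKM in SI-ILC2s, against 10.4 and 10.6 RPKM in WAT-ILC2s (change 1.55, SE 0.13). These 3 late factors were therefore each more than 2 times as high in SI-ILC2s. Ltv1, an export factor that also binds the late particle, was at 9.84 and 10.6 RPKM in SI-ILC2s, against 9.08 and 9.90 RPKM in WAT-ILC2s, with overlapping libraries.

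Bysl (chromosome 17, 47599331 to 47611492), the gene of bystin, which binds the same late precursor, went the other way. It was at 6.07 and 6.42 RPKM in SI-ILC2s, against 16.6 and 17.6 RPKM in WAT-ILC2s, a mean 2.73 times as high in WAT-ILC2s (change -1.32, SE 0.14). Its exons share 361 bases with Ccnd3 on the opposite strand, a cyclin gene that was at 7.45 and 8.16 RPKM in SI-ILC2s, against 22.8 and 25.04 RPKM in WAT-ILC2s (change -1.501). Tsr1 likewise shares 1240 exon bases with Srr on the opposite strand, which was at 9.47 and 8.28 RPKM in SI-ILC2s, against 3.25 and 2.72 RPKM in WAT-ILC2s (change 1.31). In both cases the neighbour differed in the same direction as the factor. No source used here states whether the authors counted reads by strand, so the reads of such pairs cannot be told apart, and their part in the 2 results was not tested. Exons of 21 of the 49 genes overlap a gene on the opposite strand, in most cases by fewer bases than these 2. Noc2l shares 598 exon bases with Samd11, which was at 6.70 and 6.98 RPKM in SI-ILC2s, against 6.55 and 6.76 RPKM in WAT-ILC2s. Emg1 shares 334 with Lpcat3, which was at 13.8 and 13.05 RPKM in SI-ILC2s, against 29.8 and 29.8 RPKM in WAT-ILC2s.

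The early factors of the small subunit processome were mixed. Wdr75 (chromosome 1, 45795166 to 45823619) and Wdr43 (chromosome 17, 71615895 to 71659031), WD-repeat proteins that work beside polymerase I, were 3.21 and 2.58 times as high in SI-ILC2s. Wdr75 was at 10.6 and 13.5 RPKM in SI-ILC2s, against 2.93 and 4.57 RPKM in WAT-ILC2s (change 1.47, SE 0.21). Wdr43 was at 26.8 and 25.9 RPKM in SI-ILC2s, against 9.92 and 10.5 RPKM in WAT-ILC2s (change 1.29, SE 0.13). Heatr1, another factor of the same early complex, overlapped between tissues with 2.85 and 4.75 RPKM in SI-ILC2s, against 2.19 and 3.53 RPKM in WAT-ILC2s.

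Among the proteins that ride on the U3 snoRNA, Imp4 was at 21.9 and 20.1 RPKM in SI-ILC2s, against 9.20 and 10.8 RPKM in WAT-ILC2s (change 1.005, SE 0.15). Its partner Imp3 was at 8.20 and 8.73 RPKM in SI-ILC2s, against 7.07 and 4.66 RPKM in WAT-ILC2s, and Rrp9, which binds U3 itself, at 12.1 and 10.2 RPKM in SI-ILC2s, against 7.73 and 7.44 RPKM in WAT-ILC2s. All 3 were higher in both SI-ILC2 libraries, and Imp3 was not past the threshold. Rrp12 was past it at a low level, with a mean of 2.55 RPKM in SI-ILC2s against 1.64 in WAT-ILC2s. Emg1, an RNA methyltransferase and the most abundant gene of the group, was at 83.8 and 59.2 RPKM in SI-ILC2s, against 71.6 and 49.3 RPKM in WAT-ILC2s, which overlap. Nop14, Nat10, an RNA acetyltransferase, and Utp20 had means of 14.8 RPKM in SI-ILC2s against 14.0 in WAT-ILC2s, 2.78 RPKM in SI-ILC2s against 2.93 in WAT-ILC2s and 1.20 RPKM in SI-ILC2s against 1.51 in WAT-ILC2s, and none was past the threshold.

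Factors of the large subunit were nearly all higher in SI-ILC2s. Of 14 genes, 12 were higher in both SI-ILC2 libraries and 2 in both WAT-ILC2 libraries. These orders held for 29.8% and 45.9% of all tested genes. Of the 13 tested, 8 were past the threshold with higher values in SI-ILC2s (61.5%) and 1, Noc2l, with higher values in WAT-ILC2s (7.69%). The corresponding shares of all tested genes were 17.9% and 29.6%. Median-of-ratios scaling raised the 8 to 11 and left none called for WAT-ILC2s. Rescaling to equal column sums lowered the 8 to 7 and kept the 1. As deposited, the median change was 0.72. Rrs1 (chromosome 1, 9545408 to 9547455), a factor that brings the 5S RNA particle into the precursor, showed the largest change of the 49 genes. It was at 15.6 and 16.5 RPKM in SI-ILC2s, against 2.199 and 2.33 RPKM in WAT-ILC2s, a mean 7.08 times as high in SI-ILC2s (change 2.38, SE 0.14). Rrs1 has a single exon, and no exon of another annotated gene overlaps it.

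Gnl2 (chromosome 4, 125016585 to 125055380), a GTPase of late nuclear assembly, was at 21.6 and 23.7 RPKM in SI-ILC2s, against 8.29 and 10.98 RPKM in WAT-ILC2s (change 1.16, SE 0.17). Its relative Gnl3, which encodes nucleostemin, differed less, at 18.8 and 18.1 RPKM in SI-ILC2s, against 14.5 and 15.03 RPKM in WAT-ILC2s (change 0.30, SE 0.13), and was not past the threshold. The helicase gene Ddx18 was at 16.3 and 16.0 RPKM in SI-ILC2s, against 8.04 and 8.34 RPKM in WAT-ILC2s. The 2 tissues did not overlap for any of these 3. Nip7 had means of 4.53 RPKM in SI-ILC2s against 1.86 in WAT-ILC2s, Ebna1bp2 of 10.6 RPKM in SI-ILC2s against 5.27 in WAT-ILC2s, Nop16 of 3.66 RPKM in SI-ILC2s against 1.52 in WAT-ILC2s and Noc3l of 3.14 RPKM in SI-ILC2s against 1.504 in WAT-ILC2s, each with a ratio between 2.02 and 2.44. Nop2, an RNA methyltransferase, was at 16.4 and 19.6 RPKM in SI-ILC2s, against 11.8 and 11.8 RPKM in WAT-ILC2s.

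The members of the PeBoW complex, which acts in large subunit maturation, did not share a level. Bop1 was at 11.7 and 12.8 RPKM in SI-ILC2s, against 8.60 and 10.6 RPKM in WAT-ILC2s, Pes1 at 4.54 and 6.19 RPKM in SI-ILC2s, against 1.73 and 4.43 RPKM in WAT-ILC2s, and Wdr12 at 0.826 and 0.766 RPKM in SI-ILC2s, against 0.875 and 1.07 RPKM in WAT-ILC2s. Bop1 and Pes1 were thus higher in both SI-ILC2 libraries without passing the threshold, and Wdr12 was lower and near 1 RPKM. Rrp1b had means of 4.83 RPKM in SI-ILC2s against 3.56 in WAT-ILC2s and was not past the threshold. Noc2l, whose yeast counterpart pairs with that of Noc3l in ribosome assembly, was at 15.2 and 16.3 RPKM in SI-ILC2s, against 20.9 and 23.5 RPKM in WAT-ILC2s (change -0.47, SE 0.14). It therefore differed in the opposite direction from Noc3l. The call of Noc2l was lost with median-of-ratios scaling (change -0.29), with no filter on low values (-0.47) and without SI-ILC2 replicate 1 (-0.42), SI-ILC2 replicate 2 (-0.51) or WAT-ILC2 replicate 2 (-0.39).

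Of the 49 genes, 7 also carry snoRNA genes inside their own gene on the same strand, 21 in all in GENCODE M21, since many snoRNAs are cut from the introns of such hosts. The hosts are Ncl (Snora75 and Snord82 among others), Nop56 (Snord57 and Snord110), Nop58 (Snord11 and Snord70), Wdr43 (Snord53 and Snord92), Tsr1 (Snord91a), Gnl3 (Snord19 and Snord69) and Dkc1. Of the 7 hosts, 6 were higher in both SI-ILC2 libraries, an order that held for 32 of the 49 genes and 29.8% of all tested genes. Dkc1 was lower in both SI-ILC2 libraries, as were 45.9% of all tested genes. Gnl3 and Dkc1 were not past the threshold. Levels of the snoRNAs were not analysed here.

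Other genes of the pathway were taken from lists that do not contain the 49. These lists, too, were written with earlier results of the comparison known, so that their counts and p-values here and in the paragraphs that follow are not independent evidence. Of 151 tested, 69 were higher in SI-ILC2s (45.7%), while 14 had higher values in WAT-ILC2s (9.27%), with a median change of 0.40 (limma, adjusted p below 0.05 over all genes). The shares among all tested genes were 17.9% and 29.6%. Among the 151 were 10 that passed the filter on low values through a single tissue, which favours a difference. Of these 10, 7 were past the threshold with higher values in SI-ILC2s and 1 with higher values in WAT-ILC2s. Leaving out the 10, the counts were 62 and 13 of 141, and the same step left 1213 and 1891 of 7302 among all tested genes. Without SI-ILC2 replicate 1 the counts were 41 and 5, and without SI-ILC2 replicate 2 they were 39 and 4. With median-of-ratios scaling they were 79 and 4, and after rescaling to equal column sums 58 and 16.

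**Figure D3:**
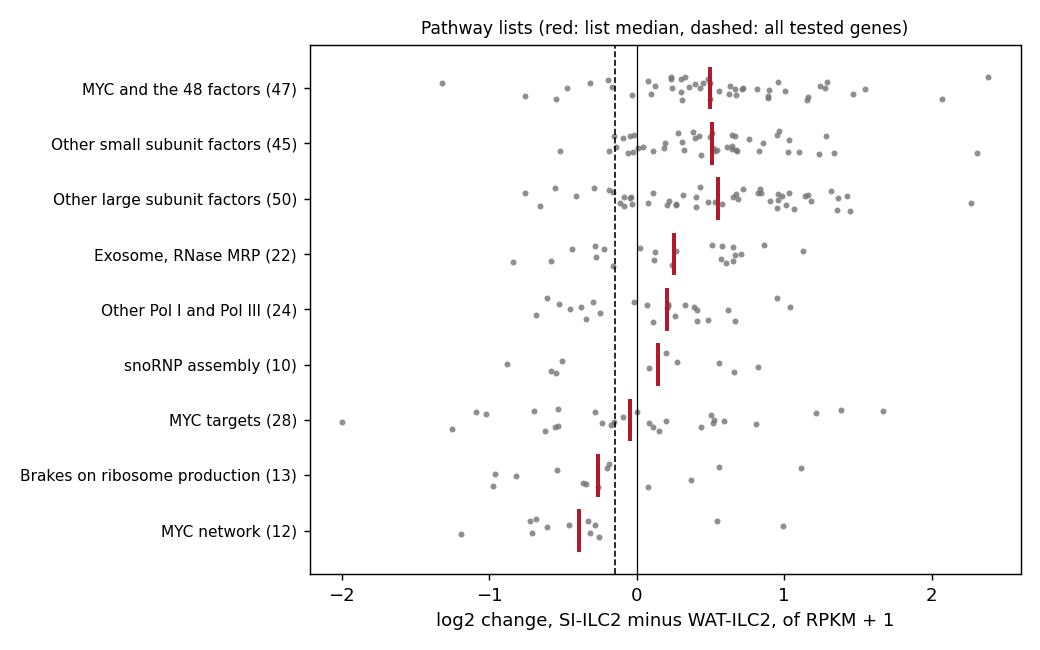
Change of each tested gene (points, log2(RPKM + 1) scale, positive where SI-ILC2s were higher) in MYC with the 48 factors and in 8 other lists, with the number tested in parentheses, the list median in red and the median of all tested genes (-0.15) dashed. The medians run from 0.56 for other large subunit factors to -0.39 for the MYC network.

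Among 45 other factors of the small subunit, 24 were higher in SI-ILC2s (53.3%) and 1, the helicase gene Ddx10, was higher in WAT-ILC2s (2.22%). The shares among all tested genes were 17.9% and 29.6%. Utp23, 1 of the 24, passed the filter through SI-ILC2s alone, and without it the counts were 23 and 1 of 44. Riok1, a kinase of the late small subunit precursor, was at 23.4 and 21.03 RPKM in SI-ILC2s, against 3.98 and 3.39 RPKM in WAT-ILC2s (change 2.31, SE 0.15, limma adjusted p = 0.00026). Krr1, Mphosph10 and Tsr2 followed with changes of 1.34, 1.29 and 1.24 (adjusted p = 0.0009, 0.0028 and 0.0039). All 4 had non-overlapping tissues. The count of 24 became 12 without SI-ILC2 replicate 1 and 14 without SI-ILC2 replicate 2, and the call of Ddx10 was lost in both cases and without WAT-ILC2 replicate 2.

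Among 50 other factors of the large subunit, 27 were higher in SI-ILC2s, while 4 had higher values in WAT-ILC2s; these counts became 22 and 1 without SI-ILC2 replicate 1, 20 and 1 without SI-ILC2 replicate 2 and 28 and 2 without WAT-ILC2 replicate 2. With all libraries the shares were 54% and 8%, against 17.9% and 29.6% of all tested genes. Nifk, a nucleolar protein that binds Ki-67, was at 29.5 and 27.2 RPKM in SI-ILC2s, against 5.41 and 4.79 RPKM in WAT-ILC2s (change 2.27, SE 0.14, limma adjusted p = 0.00024). Mrto4, Brix1 and the helicase gene Ddx24 had changes of 1.45, 1.43 and 1.36 (limma adjusted p = 0.00074, 0.0012 and 0.0021). The product of Mrto4 holds the place of the stalk on the precursor. The 4 genes higher in WAT-ILC2s included Efl1 and Sbds, whose products together remove the anti-association factor eIF6 in the cytoplasm. Efl1, listed under its older symbol Eftud1, was at 0.822 and 0.988 RPKM in SI-ILC2s, against 2.07 and 2.38 RPKM in WAT-ILC2s (change -0.76), and it passed the filter through WAT-ILC2s alone, so no test of it is given. Tma16 passed the filter through SI-ILC2s alone. Without Efl1 and Tma16 the counts were 26 and 3 of 48. Sbds was at 7.38 and 7.63 RPKM in SI-ILC2s, against 11.7 and 11.2 RPKM in WAT-ILC2s (change -0.55, adjusted p = 0.017). The other two were Gnl1 and Tex10 (changes -0.65 and -0.41, adjusted p = 0.015 and 0.047). Sbds and Tex10 missed the threshold with median-of-ratios scaling, Sbds and Gnl1 missed it without either SI-ILC2 replicate, and Tex10 missed it when any single library was left out.

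Of 22 genes of the RNA exosome, RNase MRP and other nucleases, 9 were higher in SI-ILC2s, among them C1d (change 0.86, limma adjusted p = 0.007), and 1, Pop5, was higher in WAT-ILC2s (-0.84, adjusted p = 0.011). These were 40.9% and 4.55% of the 22, against 17.9% and 29.6% of all tested genes. Pop7, with the largest change of the list (1.13), was at 2.87 and 2.92 RPKM in SI-ILC2s, against 0.868 and 0.693 RPKM in WAT-ILC2s, and passed the filter through SI-ILC2s alone, so no test of it is given. Exosc1 and Pop1 also passed it through SI-ILC2s alone. Without these 3 genes the counts were 7 and 1 of 19. The counts of 9 and 1 became 4 and 2 without SI-ILC2 replicate 1, 2 and 1 without SI-ILC2 replicate 2, 9 and 2 without WAT-ILC2 replicate 1 and 7 and 3 without WAT-ILC2 replicate 2. Of 24 other genes of polymerases I and III, 6 were higher in SI-ILC2s, led by the polymerase III subunits Polr3d (1.04, adjusted p = 0.0021) and Polr3f (0.95, adjusted p = 0.0098), and 4 in WAT-ILC2s, among them Maf1, the repressor of polymerase III, at 15.5 and 15.5 RPKM in SI-ILC2s, against 22.8 and 22.9 RPKM in WAT-ILC2s (-0.53, adjusted p = 0.018). The shares of 25% and 16.7% compare with 17.9% and 29.6% of all tested genes. Of the 6, 3 passed the filter through SI-ILC2s alone. The counts of 6 and 4 became 7 and 0 with median-of-ratios scaling, 2 and 0 without SI-ILC2 replicate 1 and 2 and 1 without SI-ILC2 replicate 2. Of 10 genes of snoRNP assembly, 3 were higher in SI-ILC2s, while 4 had higher values in WAT-ILC2s; these counts became 3 and 1 with median-of-ratios scaling, 1 and 2 without SI-ILC2 replicate 1, 1 and 1 without SI-ILC2 replicate 2, 3 and 2 without WAT-ILC2 replicate 1 and 1 and 3 without WAT-ILC2 replicate 2. As deposited, the shares of these 10 genes were 30% and 40%, against 17.9% and 29.6% of all tested genes. Tcof1, the gene of treacle, which serves polymerase I together with UBTF, was at 1.74 and 1.84 RPKM in SI-ILC2s, against 3.24 and 5.22 RPKM in WAT-ILC2s (change -0.88, limma adjusted p = 0.015).

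The partners and antagonists of MYC differed in both directions. Of 12 tested genes of the MYC network, 2 were higher in SI-ILC2s (16.7%), while 6 had higher values in WAT-ILC2s (50%). Among all tested genes these shares were 17.9% and 29.6%. Mxd1, which encodes a protein that pairs with MAX and represses E-box genes, was at 32.7 and 33.9 RPKM in SI-ILC2s, against 58.6 and 52.9 RPKM in WAT-ILC2s (change -0.73, SE 0.14, limma adjusted p = 0.0076). Mycn, the paralog of Myc, was lower in SI-ILC2s too, with 2.39 and 2.15 RPKM in SI-ILC2s, against 4.25 and 4.26 RPKM in WAT-ILC2s (-0.68, SE 0.14, adjusted p = 0.009). Usp36, a nucleolar deubiquitinase that stabilises MYC, was at 5.01 and 4.53 RPKM in SI-ILC2s, against 13.7 and 10.8 RPKM in WAT-ILC2s (-1.19, SE 0.16, adjusted p = 0.0024). Mlx, a MAX-like partner of other factors, was at 7.23 and 6.24 RPKM in SI-ILC2s, against 13.3 and 10.1 RPKM in WAT-ILC2s (-0.71, SE 0.17, adjusted p = 0.018), and Mxd4 and Mga completed the 6. Zbtb17, which encodes the MYC-binding factor MIZ1, was at 10.04 and 12.4 RPKM in SI-ILC2s, against 4.68 and 5.55 RPKM in WAT-ILC2s (0.996, SE 0.16, adjusted p = 0.0043), and Mxi1, another MAX-binding repressor, at 8.34 and 9.95 RPKM in SI-ILC2s, against 5.39 and 6.53 RPKM in WAT-ILC2s (0.54, SE 0.16, adjusted p = 0.034). Repressors of the MXD family thus differed in both directions. The counts of 2 and 6 became 2 and 3 with median-of-ratios scaling, 1 and 8 after rescaling to equal column sums, 1 and 3 without SI-ILC2 replicate 1, 1 and 2 without SI-ILC2 replicate 2 and 1 and 6 without WAT-ILC2 replicate 1.

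Max itself, the partner that MYC and the MXD proteins need, was listed at 0.291 and 0.429 RPKM in SI-ILC2s, against 0.217 and 0.321 RPKM in WAT-ILC2s. It was below the filter and far under Myc and Mxd1 per length in both tissues.

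**Figure D4:**
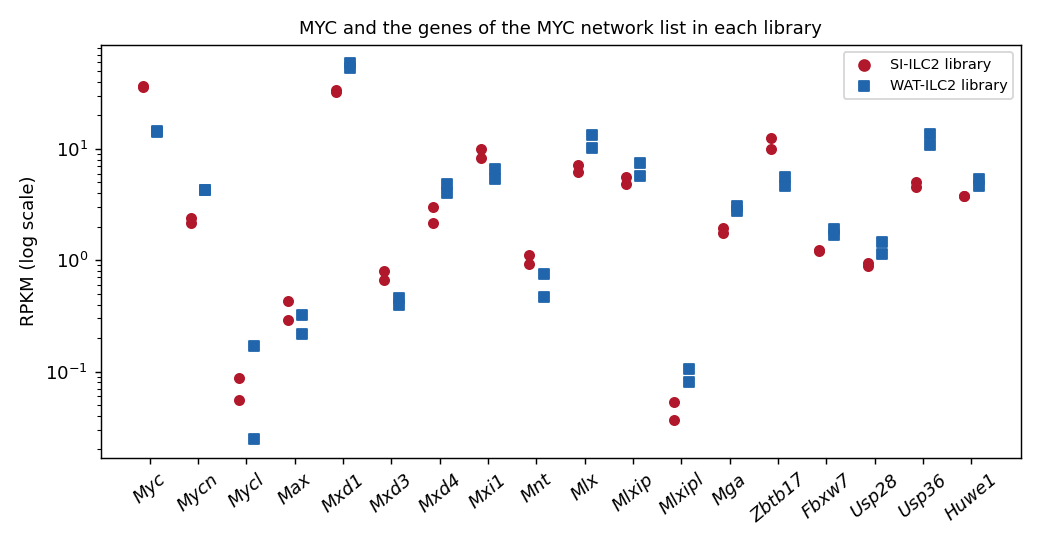
RPKM (log scale) of Myc and the 17 genes of the MYC network list, with a circle for each SI-ILC2 library and a square for each WAT-ILC2 library. Myc lies higher in SI-ILC2s, Mxd1, Mycn, Mlx and Usp36 lie lower in SI-ILC2s, and Max lies below 0.5 RPKM in all libraries.

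Of 28 tested textbook MYC targets outside ribosome assembly, 5 were higher in SI-ILC2s (17.9%), while 9 had higher values in WAT-ILC2s (32.1%), shares close to the 17.9% and 29.6% of all tested genes. These counts became 9 and 7 with median-of-ratios scaling, 7 and 7 with quantile normalization, 3 and 5 without SI-ILC2 replicate 1, 4 and 5 without SI-ILC2 replicate 2 and 9 and 7 without WAT-ILC2 replicate 1. Shmt1, 1 of the 9, passed the filter on low values through WAT-ILC2s alone. With all libraries and without Shmt1, the counts were 5 and 8 of 27. Odc1, which starts polyamine synthesis, was at 741 and 861 RPKM in SI-ILC2s, against 226 and 278 RPKM in WAT-ILC2s (change 1.67, SE 0.20, limma adjusted p = 0.0016). Eif4e, the cap-binding translation factor, was at 21.1 and 21.6 RPKM in SI-ILC2s, against 7.28 and 7.84 RPKM in WAT-ILC2s (change 1.39, SE 0.13, limma adjusted p = 0.00075). Srm, the spermidine synthase gene, had a change of 1.22 (adjusted p = 0.0039). Impdh2, the rate-limiting enzyme of guanine nucleotide synthesis, was at 68.1 and 54.5 RPKM in SI-ILC2s, against 296 and 204 RPKM in WAT-ILC2s (change -2.00, SE 0.23, adjusted p = 0.0013). The glycolysis gene Eno1, the prohibitin gene Phb and the cyclin gene Ccnd2 were also higher in WAT-ILC2s (changes -1.25, -1.09 and -1.02, adjusted p = 0.0036, 0.0055 and 0.0022).

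Of 13 tested genes that restrain ribosome production or answer nucleolar stress, 3 were higher in SI-ILC2s (23.1%), while 4 had higher values in WAT-ILC2s (30.8%), near the 17.9% and 29.6% of all tested genes. These counts became 1 and 2 without either SI-ILC2 replicate and 1 and 4 without WAT-ILC2 replicate 2. Tsc1, 1 of the 3, passed the filter on low values through SI-ILC2s alone. With all libraries and without Tsc1, the counts were 2 and 4 of 12. Larp1, which represses translation of ribosomal protein mRNAs when mTOR is off, was at 12.3 and 11.8 RPKM in SI-ILC2s, against 5.13 and 4.88 RPKM in WAT-ILC2s (change 1.12, SE 0.14, limma adjusted p = 0.0015). Trp53, the gene of p53, which ribosome assembly defects activate, was at 46.8 and 37.7 RPKM in SI-ILC2s, against 90.4 and 75.4 RPKM in WAT-ILC2s (-0.96, SE 0.18, adjusted p = 0.0064). Baz2a, which encodes the subunit of the complex that silences ribosomal DNA, was at 1.42 and 1.31 RPKM in SI-ILC2s, against 2.56 and 2.33 RPKM in WAT-ILC2s (-0.54, SE 0.13, adjusted p = 0.017), and its call was lost with quantile normalization and without either SI-ILC2 replicate or WAT-ILC2 replicate 1. Mdm2 was at 9.32 and 11.7 RPKM in SI-ILC2s, against 9.16 and 10.6 RPKM in WAT-ILC2s, and missed the threshold (limma adjusted p = 0.71).

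Genes of the cytosolic ribosomal proteins themselves, a list taken by symbol after the files were opened, had a median change of 0.74, which was 0.34 without WAT-ILC2 replicate 2 and 1.14 without WAT-ILC2 replicate 1. Of 82 tested, 64 were higher in both SI-ILC2 libraries (78%, against 29.8% of all tested genes). The test was passed by 23, all higher in SI-ILC2s (28%, against 17.9% of all tested genes). Among the 23 was Rps27l, which passed the filter through SI-ILC2s alone. That count depended on single libraries, with 4 without SI-ILC2 replicate 1, 81 without WAT-ILC2 replicate 1 and 14 without WAT-ILC2 replicate 2, and it was 44 with median-of-ratios scaling and 14 after rescaling to equal column sums, and many of these genes have processed copies among which reads cannot be assigned with certainty.

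Genes of cycling cells, in which ribosome production is also high, were not higher in SI-ILC2s as a group. Of 24 listed, 13 stayed below 1 RPKM in all libraries. Of the 10 tested none was higher in SI-ILC2s (0%), while 5 had higher values in WAT-ILC2s (50%). Among all tested genes these shares were 17.9% and 29.6%. Tk1, 1 of the 5, passed the filter through WAT-ILC2s alone, and without it the counts were 0 and 4 of 9. The 24 summed to 82.6 and 69.0 RPKM in SI-ILC2s, against 141 and 115 RPKM in WAT-ILC2s. Immediate early and heat shock genes that tissue digestion can induce summed to 2334 and 2335 RPKM in SI-ILC2s. In WAT-ILC2s they summed to 3474 and 3674 RPKM. Of these 12, 3 passed the threshold with SI-ILC2s higher (25%) and 5 with WAT-ILC2s higher (41.7%). Across all tested genes the shares were 17.9% and 29.6%. The first sum was mostly Pcna, at 54.96 and 43.4 RPKM in SI-ILC2s, against 98.2 and 68.4 RPKM in WAT-ILC2s, and the second was led by Junb, at 659 and 730.3 RPKM in SI-ILC2s, against 1137 and 1335 RPKM in WAT-ILC2s. The heat shock genes Hspa1a and Hspa1b of the second list were 3.33 and 2.67 times as high in SI-ILC2s. The part of cycling and of digestion in the results was not tested.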

How the data were processed

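Total RNA went into KAPA libraries, per the labels' protocols. The submitters' processing notes name STAR 2.6.0, featureCounts 1.6.0 of Subread and GRCm38 (mm10). For annotation, strand setting and multi-mapped reads, nothing is given in the sources used here. RPKM values, 1 column for each library, were deposited by the authors without pooling replicates. Groups and replicate numbers came from the sample titles.

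RPKM values are not counts, so limma 3.58.1 in R 4.3.3 was run on log2(RPKM + 1) of all 4 libraries (variance trend, no covariate, 2 residual and 4.4 prior degrees of freedom), after keeping genes with at least 1 RPKM in at least 2 libraries. An exact permutation test of 2 against 2 libraries cannot give a p below 0.333. Steps were tested on simulated data. Depth was estimated by scaling values of single-exon genes to whole reads: 84.7% to 86.2% fell within 0.1 of a whole number, where chance gives 20%. Such reads cover counting error only, and read numbers per gene rest on GENCODE M21 exon lengths.

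The 49 genes and all lists were chosen with earlier results of these data known. Named were, per role, the 3 most abundant genes and the 3 with the largest change, up to 4 called genes per direction of other lists, and examples of these are given. Of the list genes, 12 were matched by an older symbol, and 21, among them 20 snoRNA host genes and stable RNAs, were not used here. The lists of markers of other cells were red cell, fibroblast, endothelium, adipocyte, epithelium, T cell, B and plasma cell, ILC3, mast cell, and macrophage with dendritic cell. Alternatives were no filter or a minimum of 5 RPKM, a pseudocount of 0.1, 3 other scalings, a block for the replicate number and leaving out each library. Python 3.11.15, pandas 2.3.3, numpy 2.4.6, scipy 1.17.1 and matplotlib 3.10.9 made tables and figures.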

Additional observations from a re-analysis of the deposited data

How the results depend on the processing

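Pairs of counts are genes higher in SI-ILC2s and genes higher in WAT-ILC2s. None of the 49 genes that was past the threshold changed sign under the alternatives tried, and the change of Myc stayed past the threshold in all of them. Nor did the sign turn for the up to 4 called genes per direction with the largest changes in the other pathway and MYC lists. The sign of other named genes was not followed. Summaries did turn: with median-of-ratios scaling all genes had 1956 and 1817 past the threshold, against 1470 and 2436 as deposited, and MYC targets 9 and 7, against 5 and 9. The median of the polymerase I genes was 0.05 with that scaling and 0.04 with quantile normalization, against -0.10 as deposited, and that of the H/ACA genes was -0.05 without WAT-ILC2 replicate 1, against 0.30. With a minimum of 5 RPKM, 899 and 1182 of all genes and 44 and 7 of the other ribosome biogenesis genes were past the threshold, the MYC network had 3 in WAT-ILC2s, and the median of the 32 of the 49 genes then tested was 0.629. With median-of-ratios scaling the median of 47 was 0.671, and the counts in WAT-ILC2s were 2 for the 49 genes, 4 for the other genes and 3 for the network. With equal column sums that median was 0.352, and the network had 1 in SI-ILC2s, as it had with no filter. Without a filter and with quantile normalization the other genes had 7 in WAT-ILC2s. For these counts the cause was not tested, except that a higher minimum leaves fewer genes.

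Leaving out each library gave 15 to 24 and 1 to 4 for the 49 genes, 39 to 65 and 4 to 11 for the other genes, 1 to 2 and 2 to 6 for the network, and 745 to 1549 and 1439 to 1995 for all genes, with fewer samples in each fit.

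The replicate numbers are shared by the tissues without a stated pairing. The differences between replicates correlated between tissues across genes (r = 0.572 over 8230 genes, which are not independent). A fit with the replicate number as a block put 2271 and 3430 of all genes past the threshold, 35 and 5 of the 49, 86 and 20 of the other genes 2 and 9 of the network and 81 and 1 of the cytosolic ribosomal protein genes, against 23 and 0 without the block. Nop10, at about 19 reads in its lowest library, is the gene of the 49 most limited by depth.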
